A study of Mus musculus with 52 samples.

Results

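Lef1, Tcf7, Tcf7l1 and Tcf7l2, the TCF/LEF family of transcription factors, and Ctnnb1, which encodes beta-catenin, were followed through every RNA library of a study of endothelial cells (ECs) in the mouse brain and pituitary. These 5 genes were taken by name from the 49585 genes quantified, and their 52 annotated transcripts (15 of Ctnnb1, 8 of Lef1, 2 of Tcf7, 5 of Tcf7l1 and 22 of Tcf7l2) from 130338. In canonical Wnt signaling, beta-catenin that escapes degradation enters the nucleus and binds the N-terminal part of a TCF/LEF factor, which itself contacts DNA through an HMG box. Without beta-catenin the same factors recruit Groucho/TLE corepressors, and a TCF/LEF protein made from an internal start can bind DNA but not beta-catenin. Beta-catenin also joins cadherins to the cytoskeleton at cell junctions. In ECs of the central nervous system, this pathway is known to be needed for the blood-brain barrier.

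The data comprised 40 RNA libraries, of which 20 held RNA from ECs, among 52 libraries in all, all from adult male mice. For cerebellum, anterior pituitary and posterior pituitary, GFP-positive ECs and GFP-negative cells were sorted from WT mice, which carried the Tie2-GFP reporter alone, and from beta-catenin stabilized mice, which carried Ctnnb1flex3/+, Pdgfb-CreER and Tie2-GFP and were given 4-hydroxytamoxifen as pups. For cortex and choroid plexus, ribosome-bound RNA of ECs (bound) and whole-tissue RNA (input) were taken from RiboTag;Pdgfb-CreER mice (WT) and from RiboTag mice with Pdgfb-CreER and BcatEx3fl (stabilized). Per the paper, both RiboTag genotypes were used several weeks after they were given 4-hydroxytamoxifen. Pdgfb-CreER is an inducible Cre recombinase expressed in ECs, so that the floxed exon 3 is removed in those cells, from 1 of the Ctnnb1 alleles in Ctnnb1flex3/+ mice. In the sorted tissues stabilization cannot be told apart from the CreER and 4-hydroxytamoxifen, which the WT mice lacked, whereas both RiboTag genotypes had the CreER and 4-hydroxytamoxifen. Each group held 2 replicates, described as independent, with pituitaries of many mice and choroid plexi of several mice pooled within a replicate. With 2 libraries per group, every SD given here rests on 2 values. The sorted libraries held 12157485 to 37529274 estimated reads and the RiboTag libraries 6409013 to 21399125. The stabilized anterior pituitary EC replicate 2 is an anterior pituitary library by its title and source, although its tissue label names the posterior pituitary.

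The labelled ECs carried endothelial transcripts. The summed TPM (the Salmon level per transcript length, scaled to the same total in every library) of 6 endothelial markers was 973 to 1040 in WT and 599 to 908 in stabilized cerebellum ECs, 1574 to 1845 and 1463 to 2148 in anterior pituitary ECs, and 2472 to 3549 and 862 to 879 in posterior pituitary ECs, against 0.388 to 17.7 in the GFP-negative libraries. It was thus lower in stabilized ECs of cerebellum and posterior pituitary, without overlap, and the part of this in the genotype differences of those tissues was not tested. The bound RNA of cortex held other cell types too, at 220 to 409 TPM for the endothelial markers against 1125 to 1649 TPM for 5 microglial and 1127 to 1325 TPM for 5 neuronal markers in WT, and at 249 to 265, 571 to 599 and 282 to 327 TPM in stabilized mice. Fewer cells of a type and less RNA per cell cannot be told apart in any of these bulk libraries.

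The deletion targeted exon 3 of Ctnnb1. On GRCm38 it spans chr9:120950522-120950749 on the plus strand, is 228 bases long and encodes residues 5 to 80, that is 76 residues, so that its loss keeps the reading frame. It is printed here because it holds the residues phosphorylated by the destruction complex before beta-catenin is degraded, and the capitals mark the codons of residues 33, 37, 41 and 45.
Ctnnb1 exon 3: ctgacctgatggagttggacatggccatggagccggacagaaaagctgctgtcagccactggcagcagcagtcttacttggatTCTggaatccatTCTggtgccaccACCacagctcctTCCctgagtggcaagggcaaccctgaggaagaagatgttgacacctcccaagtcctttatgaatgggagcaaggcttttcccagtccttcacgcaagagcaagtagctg

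The deposited values are per annotated transcript, and no annotated transcript joins exon 2 to exon 4 of Ctnnb1, so the excised messenger RNA was not measured. The nearest measure is the share of Ctnnb1 reads that Salmon placed on transcripts holding the whole of exon 3. In WT ECs it was 36.6% and 13.0% in cerebellum, 36.8% and 45.8% in anterior pituitary, and 25.0% and 47.1% in posterior pituitary. In stabilized ECs it was 9.88% and 5.05%, 11.6% and 13.3%, and 12.2% and 12.5% in the same order. The 6 stabilized values lay below the 6 WT values except for 1 WT cerebellum library at 13.0%, which was below the highest stabilized value. The GFP-negative cells ranged from 10.4% to 46.3% in WT and from 8.1% to 22.7% in stabilized mice. In bound RNA the share was 26.8% and 50.8% in WT cortex, 34.7% and 31.1% in stabilized cortex, 39.0% and 35.9% in WT choroid plexus, and 36.9% and 31.4% in stabilized choroid plexus, and the genotypes overlapped in both tissues. The part that the deletion itself has in these shares was not tested.

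WT ECs of cerebellum and pituitary differed most in Lef1 and Tcf7. Lef1 (ENSMUSG00000027985, chr3:131110471-131224356, plus strand) reached 156 and 120 TPM in WT cerebellum ECs, whereas pituitary ECs of the same genotype had 0 and 4.27 TPM in the anterior and 0.258 and 6.04 TPM in the posterior lobe. As estimated reads these were 13895 and 8480, 0 and 167, and 33 and 96, and the cerebellum libraries stood far above all 4 pituitary libraries. By edgeR's quasi-likelihood test across 17915 genes, in which a gene was called at a Benjamini-Hochberg adjusted p under 0.05, Lef1 was higher in WT cerebellum than in WT anterior pituitary ECs by 7.11 on the log2 scale (SE 1.39, adjusted p = 0.00799) and than in posterior pituitary ECs by 6.76 (SE 1.37, adjusted p = 0.0118). Tcf7 (chr11, minus strand), which encodes TCF1, had 2491 and 2605 reads in WT cerebellum ECs, 0 and 11 in anterior pituitary ECs and 9 and 0 in posterior pituitary ECs. Its log2 differences were 8.93 (SE 1.16, adjusted p = 0.000392) and 8.96 (SE 1.18, adjusted p = 0.000543). So 2 of 5 members were called in each of these comparisons, where 5.27% (anterior) and 4.42% (posterior) of all genes tested were. Tcf7 stayed called with only the compared groups in the fit or with an offset for transcript length, whereas Lef1 was lost against anterior pituitary with either (adjusted p = 0.0769 and 0.0865) and against posterior pituitary with the offset (adjusted p = 0.131). Markers of mural cells summed to 530 to 614 TPM in WT cerebellum ECs and to 71.9 to 195 TPM in WT pituitary ECs, and their part in these differences was not tested.

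Tcf7l1 (chr6:72626378-72789254, minus strand), which encodes TCF3, a factor known mostly as a repressor, ran the other way in its levels. WT ECs held 17.5 and 27.9 RPM (estimated reads of the gene in every 1000000 of the library) of Tcf7l1 in cerebellum, 54.4 and 61.6 in anterior pituitary and 87.1 and 72.5 in posterior pituitary. The cerebellum libraries lay below all 4 pituitary libraries, and the fitted log2 differences of -1.22 (SE 0.47, adjusted p = 0.223) and -1.71 (SE 0.48, adjusted p = 0.0711) did not pass the test. Tcf7l2, which encodes TCF4, held 19.1 and 26.6 RPM in WT cerebellum ECs, against 36.5 and 39.9 RPM for the anterior lobe and 34.9 and 21.5 RPM for the posterior lobe, where 1 library fell between those of cerebellum. Ctnnb1 held 1459 and 1833 RPM, 886 and 871 RPM, and 976 and 1411 RPM in the same order. Per length Ctnnb1 was the most abundant of the 5 in each of these tissues, with a mean of 1296 TPM, 441 TPM and 804 TPM. Its cerebellum to anterior pituitary difference of 1.03 (SE 0.30, adjusted p = 0.0788) did not pass. Between WT anterior and posterior pituitary ECs edgeR called 0 of 5 members, as did DESeq2, and 0 reached an unadjusted p under 0.05, where 0.994% of all genes were called.

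**Figure D1:**
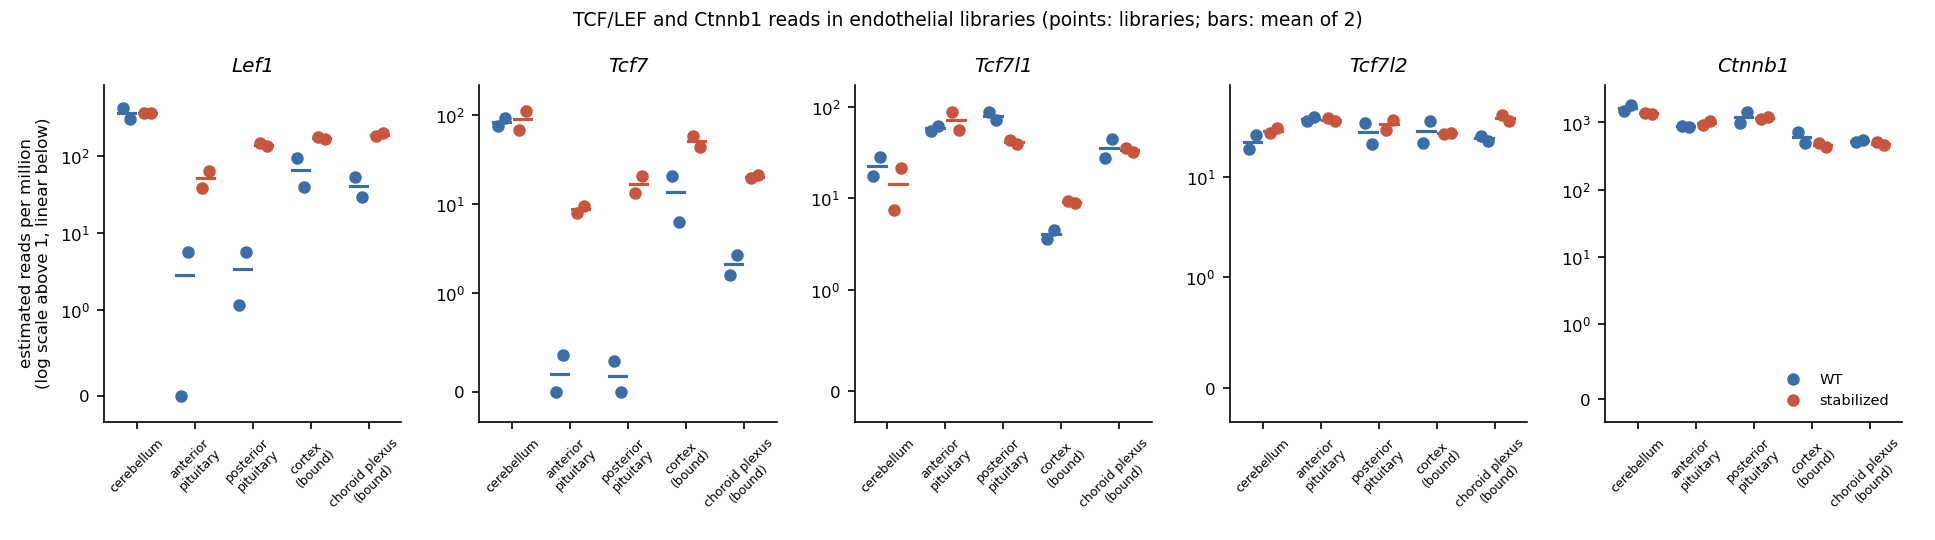
RPM of each of the 5 genes in the 20 EC libraries, by tissue on the horizontal axis, with a point for each library and WT and stabilized libraries marked separately. Lef1 and Tcf7 are near 0 in WT pituitary ECs and lie above WT in stabilized ECs of every tissue but cerebellum, whereas Ctnnb1 stays between 437 and 1833 throughout.

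Of the RiboTag WT ECs, cortex and choroid plexus differed in Tcf7 and Tcf7l1. Tcf7 stood at 20.6 and 6.32 RPM in bound RNA of WT cortex and at 1.60 and 2.64 in WT choroid plexus, a log2 difference of 2.62 (SE 0.58, adjusted p = 0.00808, but 0.0553 with only the compared groups in the fit). Tcf7l1 stood at 3.54 and 4.49 in cortex and at 27.6 and 43.9 in choroid plexus, a log2 difference of -3.13 (SE 0.43, adjusted p = 0.000631). Thus 1 member was called higher and 1 lower, where 31.6% of all 16775 genes were called, so that 2 of 5 is near that background. Lef1 held 92.2 and 38.7 RPM in cortex and 52.3 and 29.1 in choroid plexus, and its libraries overlapped in RPM (log2 difference 0.66, adjusted p = 0.215). Markers of choroid plexus epithelium summed to 19079 to 20064 TPM in the WT choroid plexus bound RNA, and in WT cortex bound RNA microglial markers summed to 1125 to 1649 TPM (43.7 to 45.9 in choroid plexus), neuronal markers to 1127 to 1325 (11.0 to 14.0) and oligodendrocyte markers to 1072 to 1126 (20.1 to 21.7). The part of these other cells in the differences was not tested.

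Across the family, WT cerebellum ECs were dominated by Lef1 and WT pituitary ECs by Tcf7l1 and Tcf7l2. Lef1 made up 79.3% ± 3.30 (SD, n = 2) of the summed TPM of the 4 factors in WT cerebellum ECs, 4.61% ± 6.52 in anterior and 7.20% ± 8.88 in posterior pituitary ECs, 48.9% ± 1.75 in cortex and 45.6% ± 13.9 in choroid plexus. Tcf7l1 made up 2.51%, 54.3% ± 16.4 and 55.8% ± 29.3 in the first 3 of these tissues. The summed level was 173 TPM in cerebellum, 30.9 TPM in anterior pituitary and 36.5 TPM in posterior pituitary. These shares and sums count noncoding transcripts too, which held 88.6 and 87.2 TPM of Lef1 in WT cerebellum ECs.

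Stabilization of beta-catenin was accompanied by higher Tcf7 in both lobes of the pituitary. In anterior pituitary ECs Tcf7 went from 0 and 11 reads in WT to 198 and 223 reads in stabilized mice, or from 0 and 0.37 to 7.96 and 9.59 RPM. In posterior pituitary ECs it went from 9 and 0 to 298 and 499 reads, or from 0.314 and 0 to 13.4 and 20.4 RPM. Both stabilized libraries lay above both WT libraries in each lobe. The fitted log2 changes were 5.55 (SE 1.04, adjusted p = 0.0377) and 6.81 (SE 1.10, adjusted p = 0.00854), and their size depends on the handling of WT counts this near 0. Tcf7 was thus 1 of 5 members called in each lobe, where 0.458% (anterior) and 1.79% (posterior) of all genes were called. Without the library with the conflicting tissue label its anterior log2 change was 5.33. Both calls were lost with only the compared groups in the fit (adjusted p = 0.247 and 0.168) or with an offset for transcript length (0.167 and 0.0536), over alternatives that ran down to 2.04e-14 and 9.67e-20 without the filter on low counts.

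Lef1 was higher in the stabilized libraries of the same tissues without passing the threshold. In anterior pituitary ECs it held 0 and 167 reads in WT and 950 and 1474 in stabilized mice, or 0 and 5.61 against 38.2 and 63.4 RPM. In posterior pituitary ECs it held 33 and 96 reads against 3225 and 3233, or 1.15 and 5.57 against 145 and 132 RPM. The stabilized libraries lay well above WT in both lobes. The log2 changes were 4.20 (SE 1.22, adjusted p = 0.276) and 5.56 (SE 1.30, adjusted p = 0.0528). The Lef1 calls depended on the processing. With no filter on low counts Lef1 was called in both lobes (adjusted p = 7.92e-26 and 2.08e-40). In anterior pituitary it was not called with DESeq2 (adjusted p = 0.193), only the compared groups (0.324) or the transcript length offset (0.728). In posterior pituitary it was called with DESeq2 (adjusted p = 0.0151) and a replicate block (0.0179). There it was not called with only the compared groups (adjusted p = 0.072) or the offset (0.274). Without 1 WT library the log2 change of Lef1 ran from 3.21 to 13.30 in anterior and from 4.77 to 7.25 in posterior pituitary, and that of Tcf7 from 4.57 to 10.75 and from 6.07 to 11.98, so their sizes depend on single WT libraries. The increase in posterior pituitary exceeded that in anterior pituitary by 1.36 (SE 1.55, adjusted p = 0.902) for Lef1 and by 1.25 (SE 1.41, adjusted p = 0.899) for Tcf7. edgeR called 0 of 5 members for this difference of responses, as did DESeq2, and 0 reached an unadjusted p under 0.05, where 0.128% of all genes were called.

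Microglial and T cell transcripts also differed between these libraries. The summed TPM of 5 microglial markers was 0.0362 to 4.78 in WT and 76.5 to 132 in stabilized anterior pituitary ECs, and 0.116 to 0.86 and 109 to 134 in posterior pituitary ECs. T cells are a known source of Tcf7 and Lef1, and the summed TPM of 6 T cell markers was 1.99 to 3.75 in WT against 6.04 to 8.58 in stabilized anterior pituitary ECs and 9.12 to 11.4 against 11.8 to 21.0 in posterior pituitary ECs. Of these markers Cd3e, Cd3g and Cd4 were at 0 in all 4 WT pituitary EC libraries, and Cd3g was also at 0 in both stabilized anterior pituitary ones. The part of such cells in the higher Tcf7 and Lef1 was not tested.

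In cerebellum ECs, where both genes were abundant to begin with, they did not separate by genotype. Lef1 held 417 and 302 RPM in WT and 359 and 360 in stabilized mice, and Tcf7 held 74.7 and 92.8 against 68.6 and 110. The stabilized libraries lay within or across the WT range, and the log2 changes were 0.02 (SE 1.05) for Lef1 and 0.10 (SE 0.79) for Tcf7, both with an adjusted p of 1. edgeR called 0 of 5 members in cerebellum, 0 reached an unadjusted p under 0.05, and DESeq2 called 0, where edgeR called 0.648% of all genes.

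In the 2 RiboTag tissues Lef1 and Tcf7 were again higher in every stabilized library than in either WT library. In cortex Lef1 held 92.2 and 38.7 RPM in WT and 174 and 162 in stabilized mice (log2 change 1.37, SE 0.38, adjusted p = 0.0672), and Tcf7 held 20.6 and 6.32 against 58.6 and 43.3 (1.93, SE 0.53, adjusted p = 0.0634). In choroid plexus Lef1 held 52.3 and 29.1 against 177 and 194 (2.0, SE 0.39, adjusted p = 0.0608), and Tcf7 held 1.60 and 2.64 against 19.5 and 20.9 (3.05, SE 0.59, adjusted p = 0.0576). All 4 adjusted p-values lay above 0.05, and edgeR called 0 of 5 members in each tissue, where it called 6.53% of all genes in cortex and 0.852% in choroid plexus. At an unadjusted p under 0.05 there were 3 members in cortex and 2 in choroid plexus, and DESeq2 called 2 in each. With a transcript length offset Lef1 was called in cortex (adjusted p = 0.0415) and Tcf7 was not (0.541), nor was Lef1 (0.212) or Tcf7 (0.166) in choroid plexus. Without WT cortex replicate 1 or 2 the log2 change of Lef1 was 2.01 and 0.94, and that of Tcf7 was 2.90 and 1.37. Per length the cortex Tcf7 libraries overlapped, at 14.4 and 4.23 TPM in WT and 8.98 and 6.53 TPM in stabilized mice. In the same cortex libraries microglial markers summed to 1125 to 1649 TPM in WT and 571 to 599 TPM in stabilized mice, neuronal markers summed to 1127 to 1325 TPM in WT and 282 to 327 TPM in stabilized mice, and oligodendrocyte markers to 1072 to 1126 and 158 to 167 TPM. Epithelial markers summed to 19079 to 20064 TPM in WT and 11885 to 13479 TPM in stabilized choroid plexus bound RNA, where astrocyte markers summed to 25.4 to 29.0 and 56.9 to 144 TPM and microglial markers to 43.7 to 45.9 and 50.6 to 73.2 TPM, higher in stabilized mice without overlap. The part of these other cells in the RiboTag differences was not tested.

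**Figure D2:**
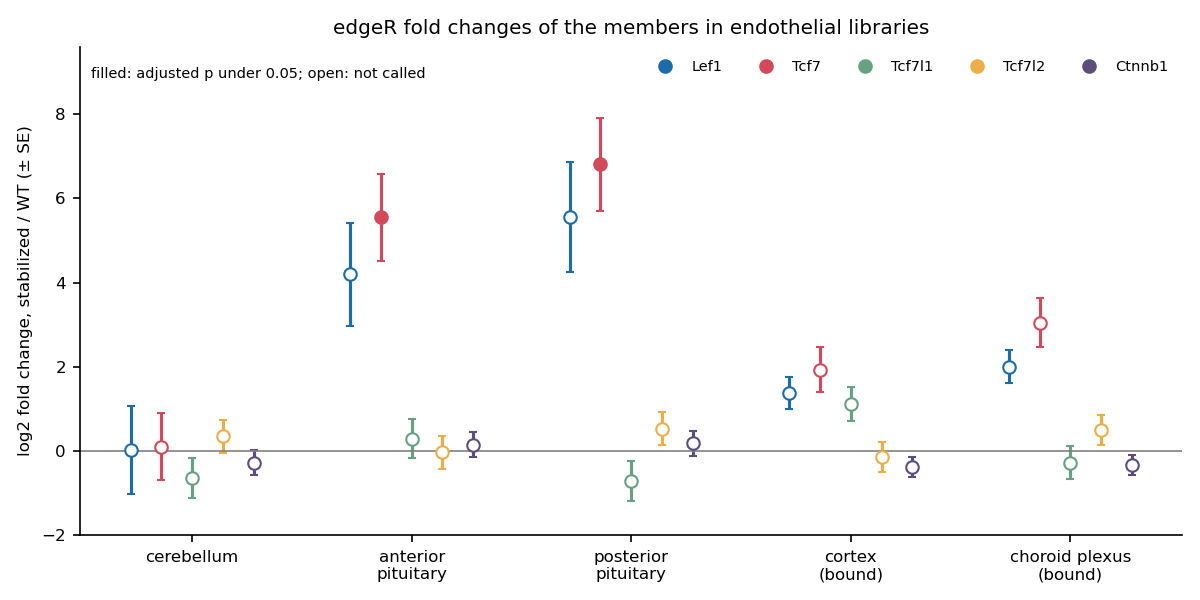
Log2 fold change of stabilized over WT ECs for each gene (horizontal axis groups by tissue), with bars of 1 SE from the edgeR fit and filled points for changes called at an adjusted p under 0.05. Tcf7 in anterior pituitary (5.55) and in posterior pituitary (6.81) is filled, and the points of Tcf7l2 and Ctnnb1 lie between -0.38 and 0.53.

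Tcf7l1, Tcf7l2 and Ctnnb1 were not called between genotypes in ECs of any tissue. Tcf7l1 of posterior pituitary ECs held 87.1 and 72.5 RPM in WT, against 43.4 and 38.7 RPM once beta-catenin was stabilized, without overlap (log2 change -0.72, SE 0.47, adjusted p = 0.507). In those posterior pituitary libraries the summed endothelial markers were lower too, at 2472 to 3549 TPM in WT and 862 to 879 TPM in stabilized mice, and their part in the lower Tcf7l1 was not tested. Tcf7l1 held 3.54 and 4.49 against 9.22 and 8.77 in cortex, without overlap in the other direction (1.12, SE 0.41, adjusted p = 0.142). In cerebellum it held 17.5 and 27.9 against 7.48 and 21.4, and in anterior pituitary 54.4 and 61.6 against 87.5 and 56.3, so that the genotypes overlapped in both. In choroid plexus Tcf7l1 overlapped in RPM, at 27.6 and 43.9 against 35.7 and 31.6 (log2 change -0.28, SE 0.39, adjusted p = 0.817), but per length it stood at 8.21 and 10.9 TPM in WT and at 5.92 and 3.50 TPM in stabilized mice, lower without overlap. Tcf7l2 held 19.1 and 26.6 against 27.6 and 30.9 RPM in cerebellum and 26.1 and 23.0 against 42.5 and 36.7 in choroid plexus, higher in both stabilized libraries by 0.35 (SE 0.39, adjusted p = 0.822) and 0.50 (adjusted p = 0.586) on the log2 scale. Its RPM overlapped in both pituitary lobes and cortex. Per length the cerebellum and choroid plexus libraries of Tcf7l2 overlapped, whereas in cortex Tcf7l2 stood at 16.2 and 21.4 TPM in WT and at 10.2 and 12.0 TPM in stabilized mice, lower without overlap.

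Ctnnb1 was not called as a whole gene, and its size of change depended on the scale. It held 1459 and 1833 RPM in WT and 1387 and 1333 in stabilized cerebellum ECs (log2 change -0.28, SE 0.30, adjusted p = 0.801), 886 and 871 against 910 and 1042 in anterior pituitary ECs (0.15, SE 0.30, adjusted p = 1), and 976 and 1411 against 1134 and 1210 in posterior pituitary ECs (0.18, adjusted p = 0.866). In cortex it held 716 and 499 against 504 and 437 (-0.38, SE 0.24, adjusted p = 0.375), and in choroid plexus 512 and 557 against 513 and 457 (-0.34, adjusted p = 0.569). In RPM the genotypes did not overlap in cerebellum and anterior pituitary, lower in the first and higher in the second. As given above, endothelial markers were lower in stabilized cerebellum ECs and microglial markers higher in stabilized anterior pituitary ECs. The part of these in the Ctnnb1 differences was not tested. Per length, the cerebellum libraries overlapped, at 928 and 1664 TPM in WT and 1122 and 1006 TPM in stabilized ECs. Per length, Ctnnb1 in anterior pituitary ECs was at 464 and 418 TPM in WT and at 865 and 798 TPM in stabilized mice, a mean difference of 0.92 in log2(TPM + 1) without overlap, and the fit with a transcript length offset gave 0.88 (adjusted p = 0.728) in place of 0.15. In posterior pituitary ECs that offset gave 0.85 (adjusted p = 0.414) in place of 0.18, while TPM overlapped at 774 and 833 against 805 and 827. In cortex the offset turned the change from -0.38 to 0.66. In choroid plexus Ctnnb1 was at 338 and 402 TPM in WT and 276 and 245 TPM in stabilized mice, lower without overlap.

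The makeup of the family moved with Lef1. Its share of the summed TPM of the 4 factors was 35.4% ± 19.6 (SD, n = 2) in stabilized anterior and 71.6% ± 12.0 in stabilized posterior pituitary ECs, 74.7% ± 1.79 in cortex and 76.6% ± 2.36 in choroid plexus, compared with the WT shares above, and it was 80.4% in stabilized cerebellum ECs. The share of Tcf7l1 was 36.6% and 11.0% ± 0.997 in stabilized anterior and posterior pituitary ECs, and it was 29.3% in WT and 6.59% in stabilized choroid plexus. The summed level was 52.8 TPM in stabilized anterior pituitary, 62.7 TPM in posterior pituitary, 83.0 TPM in cortex, where WT had 57.1 TPM, and 70.8 TPM in choroid plexus, where WT had 35.4 TPM. Noncoding Lef1 was at 0 and 13.7 TPM in WT and 45.2 and 57.0 in stabilized cortex. Full-length Lef1 there was at 9.6 and 3.68 against 11.2 and 9.8 TPM. Lef1 from an internal start was at 21.9 and 7.07 against 0.397 and 0.642 TPM. So coding Lef1 TPM was not higher in stabilized cortex. In choroid plexus noncoding Lef1 was at 20.0 and 8.27 against 47.7 and 38.0 TPM. Full-length Lef1 there was at 2.73 and 1.58 against 8.97 and 10.1 TPM.

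Ordered by their mean TPM over the 10 EC groups, Lef1 ran from stabilized cerebellum (177 ± 85.2, SD) and WT cerebellum (138 ± 25.8), which overlapped, through stabilized cortex (62.1 ± 7.50), stabilized choroid plexus (54.3 ± 4.86) and stabilized posterior pituitary (45.5 ± 14.5), each overlapping its neighbor in this order, to WT cortex (28.0 ± 5.01), stabilized anterior pituitary (19.0 ± 11.6) and WT choroid plexus (16.9 ± 9.99), in which stabilized anterior pituitary overlapped both others while WT cortex lay above WT choroid plexus, with WT posterior (3.15 ± 4.09) and WT anterior pituitary (2.14 ± 3.02) last. Tcf7 ran from WT (25.0 ± 1.64) and stabilized (23.0 ± 2.07) cerebellum, which lay within their spread, to WT posterior (0.115 ± 0.163) and WT anterior pituitary (0.101 ± 0.143). These TPM count noncoding transcripts as well. Sorted and RiboTag libraries were made differently, and levels were not tested between them.

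The cells around the ECs held little Lef1 in the sorted tissues, and choroid plexus input held more. GFP-negative cells of WT mice had 0.758 and 1.90 RPM of Lef1 in cerebellum, 0.318 and 1.24 in anterior pituitary and 0 and 0.0545 in posterior pituitary, below the ECs of the same tissue in cerebellum and posterior pituitary and within their range in anterior pituitary. WT ECs exceeded the surrounding cells in Lef1 by 7.83 on the log2 scale in cerebellum (SE 1.55, adjusted p = 0.00235), by 7.18 in posterior pituitary (SE 1.97, adjusted p = 0.0171) and, in bound over input RNA, by 2.57 in cortex (SE 0.32, adjusted p = 0.000106). The excess was not called in anterior pituitary (1.91, SE 1.25, adjusted p = 0.362) or in choroid plexus (0.21, SE 0.31, adjusted p = 0.699), where input held 29.0 and 23.0 RPM of Lef1 against 52.3 and 29.1 in bound RNA. Per length the choroid plexus libraries did not overlap, at 2.60 and 3.87 TPM in input and 23.98 and 9.84 TPM in bound RNA, a mean difference of 2.24 in log2(TPM + 0.1). Of this, noncoding Lef1 transcripts held 0.69 and 2.03 TPM in input and 20.0 and 8.27 TPM in bound RNA. Ctnnb1 was higher in WT ECs in all 5 tissues, by 3.06 (SE 0.38, adjusted p = 3e-05) in cerebellum, 1.48 (SE 0.36, adjusted p = 0.00977) in anterior pituitary, 1.93 (SE 0.36, adjusted p = 0.00101) in posterior pituitary, 0.62 (SE 0.16, adjusted p = 0.0178) in cortex and 0.64 (SE 0.16, adjusted p = 0.0126) in choroid plexus. Tcf7l1 was higher in ECs of posterior pituitary (5.25, SE 0.93, adjusted p = 0.000598) and choroid plexus (1.32, SE 0.35, adjusted p = 0.0171), Tcf7 in those of cortex (2.82, SE 0.48, adjusted p = 0.00141), and Tcf7l2 was lower in the bound RNA of cortex (-1.26, SE 0.37, adjusted p = 0.0348). These made 2, 1, 3, 4 and 2 members called in cerebellum, anterior pituitary, posterior pituitary, cortex and choroid plexus, where 11.4%, 11.4%, 14.6%, 15.8% and 19.8% of all genes were called. As given above, the sorted WT ECs also held mural markers, and the WT cortex bound RNA microglial, neuronal and oligodendrocyte markers. The part of such cells in the differences from surrounding cells and input was not tested. With only the compared groups in the fit, Lef1 and Ctnnb1 in posterior pituitary (adjusted p = 0.216 and 0.0664) and Tcf7l2 and Ctnnb1 in cortex (adjusted p = 0.142 and 0.0575) were not called. With the transcript length offset, Ctnnb1 in anterior pituitary (0.0777) and choroid plexus (0.183) and Tcf7l2 in cortex (0.445) were not called, nor were Tcf7l1 (0.0939) and Ctnnb1 (0.186) in choroid plexus with no filter on low counts. Leaving out 1 library ended several of these calls. They were Lef1 in posterior pituitary (without EC replicate 2 or GFP-negative replicate 1), Tcf7l2 in cortex (without bound replicate 1 or either input replicate), Tcf7l1 in choroid plexus (without bound replicate 2 or either input replicate) and Ctnnb1 in choroid plexus (without any 1 of its 4 libraries).

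Between stabilized and WT mice, the surrounding cells and input RNA showed 1 called member, Ctnnb1 in cortex input, which was lower by 0.73 (log2 change -0.73, SE 0.16, adjusted p = 0.0158), a call that was lost without any 1 of its 4 libraries, with a fold of at least 2, with no filter on low counts or with the transcript length offset. In the same cortex input, neuronal markers summed to 1970 to 2249 TPM in WT and 419 to 581 TPM in stabilized mice, oligodendrocyte markers to 1797 to 2282 and 462 to 484 TPM, and astrocyte markers to 389 to 441 and 155 to 213 TPM, and their part in the Ctnnb1 difference was not tested. edgeR called 0 members in the surrounding cells of the other 4 tissues, where 0.717% of all genes were called in cerebellum, 0.0281% in anterior pituitary, 0.595% in posterior pituitary and 0.0822% in choroid plexus, against 6.22% in cortex. In cerebellum, anterior pituitary and choroid plexus 1 member each reached an unadjusted p under 0.05, in posterior pituitary 0 did, and DESeq2 called 0 in all 4.

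The annotation gave 3 kinds of Lef1 transcript. Lef1-201, Lef1-202 and Lef1-204 start at chr3:131110471 on GRCm38 and encode full-length proteins, of 397 residues for Lef1-201, with the N-terminal part that binds beta-catenin. Lef1-203 starts 2326 bases further on, at chr3:131112797, and encodes a short protein of 331 residues that lacks that part and keeps the HMG box. The remaining 4 hold no coding sequence. Lef1-201 was the Lef1 transcript called higher in stabilized pituitary ECs. It had 0 and 0 reads in WT anterior pituitary ECs against 769 and 942 in stabilized ones, and 0 and 0 against 2338 and 1329 in posterior pituitary. Salmon divides reads among overlapping transcripts, so a transcript listed at 0 may still have had reads, and no fold is given. Both changes were called in the transcript fit over 55524 transcripts (adjusted p = 0.00641 and 0.00367), and both calls were lost with only the compared groups in the fit. Other Lef1 transcripts were also higher in both stabilized libraries without being called, such as Lef1-207 at 621 and 551 reads against 0 and 96 in WT (adjusted p = 0.58) and Lef1-206 at 70.1 and 148 reads against 0 and 0 (adjusted p = 0.58) in posterior pituitary. In those WT libraries the few Lef1 reads lay on the noncoding Lef1-207, with 123 reads in WT anterior replicate 2 and 96 in WT posterior replicate 2, and on the full-length Lef1-204, with 43.9 reads in WT anterior replicate 2 and 33 in WT posterior replicate 1.

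The short Lef1-203 differed widely between replicates. It had 3325 and 0 reads in WT cerebellum ECs and 3114 and 2839 in stabilized ones, and in stabilized pituitary ECs 0 and 151 for the anterior lobe against 0 and 1195 for the posterior lobe. As a share of the TPM on coding transcripts of Lef1 it was 48.0% and 0% in WT cerebellum, 52.0% and 74.5% in stabilized cerebellum, and 0% and 57.0% in stabilized posterior pituitary ECs. Cortex was the exception in which replicates came close, with 69.5% and 65.8% of this TPM in WT and 3.42% and 6.14% in stabilized bound RNA. As a share of coding reads these were 50.7% and 45.6% against 2.03% and 3.78%. Lef1-203 had 686 and 295 reads in WT against 17.3 and 42.9, and Lef1-201 went from 593 and 353 to 832 and 1071 reads there. Cortex input moved the same way, with 111 and 83.0 reads of Lef1-203 in WT and 0 and 0 in stabilized mice, and the transcript proportions of Lef1 in bound RNA did not pass the gene-level F test (adjusted p = 0.184) or the Simes method (adjusted p = 0.313). Neuronal markers summed to 1127 to 1325 TPM in WT and 282 to 327 TPM in stabilized cortex bound RNA, and their part in the short share was not tested. Over 18 EC libraries, stratified by tissue, the short share was 24.7% ± 26.9 (SD, n = 10) in stabilized and 26.7% ± 30.9 (n = 8) in WT ECs. The mean difference within tissues was 3.32 percentage points, opposite in sign to the difference of the overall means, and was not past the spread between libraries (exact permutation test, two-sided, p = 0.798, adjusted p = 0.989 over 4 comparisons). Between ECs (25.6% ± 27.9, n = 18) and surrounding cells (23.7% ± 34.6, n = 15) the difference within tissue and genotype was 5.85 percentage points over the 32 libraries of the 9 tissue and genotype combinations with both kinds of library (permutation test with 100000 draws, p = 0.549, adjusted p = 0.989). Libraries without 10 reads on coding transcripts were left out, which removed 2 WT pituitary EC libraries.

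**Figure D3:**
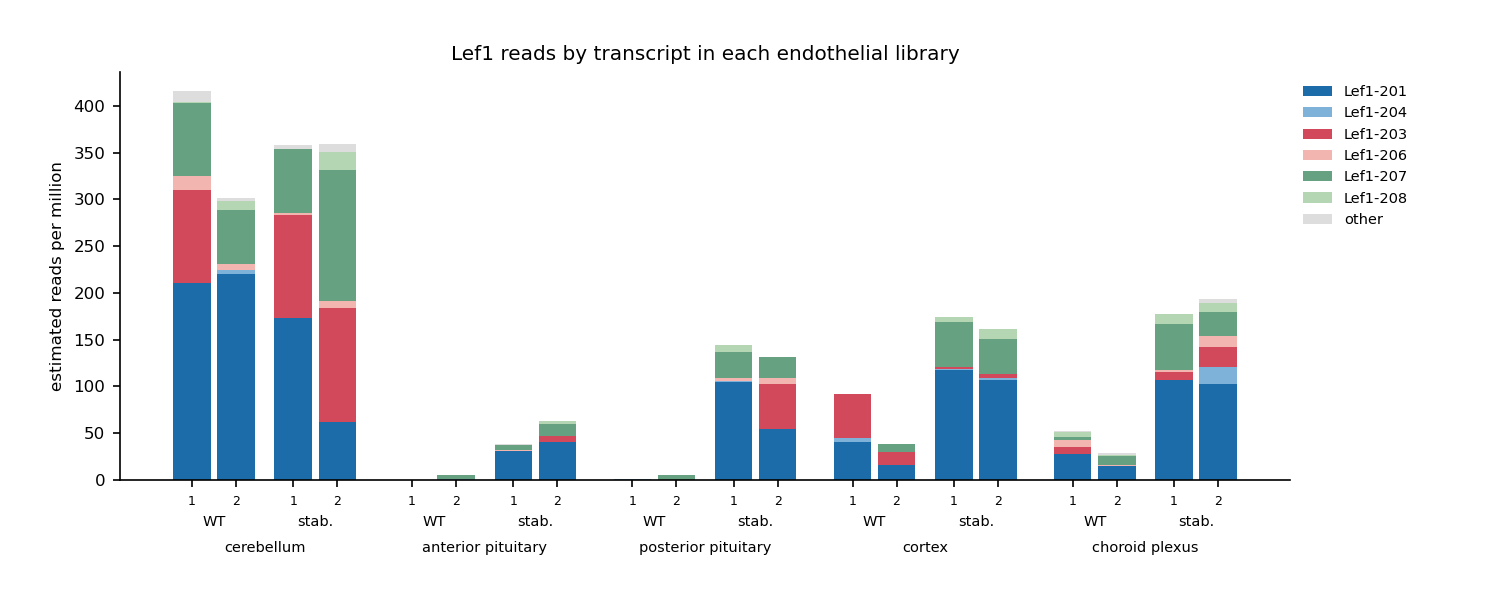
Stacked bars of Lef1 RPM by transcript in each EC library, with full-length, short and noncoding transcripts in separate colors. Lef1-201 is seen in all 4 stabilized pituitary libraries and in 0 of the 4 WT ones, whereas Lef1-203 appears in 1 replicate and not in the other in several groups.

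Tcf7l2 also has short transcripts, Tcf7l2-203, Tcf7l2-218 and Tcf7l2-221, beside 9 full-length ones and 10 without coding sequence. Its reads, WT against stabilized, were 0 and 335 against 405 and 384 for Tcf7l2-203 in anterior pituitary ECs, 351 and 0 against 0 and 354 in posterior pituitary ECs, and 0 and 395 against 333 and 87.6 in cerebellum ECs. In 4 of these 6 groups Tcf7l2-203 was at 0 in 1 library and at over 300 reads in the other. The short share of coding Tcf7l2 TPM was 52.8% ± 29.5 (SD, n = 10) in stabilized and 49.0% ± 34.9 (n = 10) in WT ECs, 3.88 percentage points apart (exact permutation test, p = 0.796, adjusted p = 0.989). Between ECs (50.9% ± 31.5, n = 20) and surrounding cells (51.1% ± 32.9, n = 20) it differed by -0.147 percentage points (permutation test with 100000 draws, p = 0.989, adjusted p = 0.989). Tcf7l1 has no short transcript in this annotation. Its full-length Tcf7l1-202 had 0 and 0 reads in WT ECs of cerebellum, anterior and posterior pituitary and cortex. Stabilized ECs had 20.6 and 333, 220 and 379, 96.5 and 96.0, and 44.6 and 65.8 reads in that order. In choroid plexus it had 103 and 87.7 reads in WT against 88.45 and 0, and WT anterior pituitary GFP-negative cells had 222 and 76.5. Transcript proportions of Tcf7l1 did not pass the gene-level F test in any tissue (lowest adjusted p = 0.0646, in cortex).

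For Tcf7 the short and full-length proteins could not be compared. Both annotated transcripts encode the same protein of 303 residues, while 6 longer predicted RefSeq proteins of 369 to 516 residues hold 116 further residues at the N terminus, whose 348 coding bases overlap Tcf7-202 by 183 bases and Tcf7-201 by 29. The annotated protein thus lacks those N-terminal residues, and beta-catenin binds the N-terminal part of these factors. Whether the higher Tcf7 RNA encoded a protein able to bind beta-catenin was not measured. Tcf7-201 carried 2367 and 2128 reads in WT cerebellum ECs against 124 and 477 for Tcf7-202. In stabilized posterior pituitary ECs they had 298 and 343 against 0 and 156 reads, and in stabilized anterior pituitary ECs 84.2 and 80.7 against 114 and 142, so that the 2 lobes differed in which transcript carried the larger part. Tcf7-201 had 0 and 0 reads in WT posterior pituitary ECs, and its difference was not called (adjusted p = 0.0644).

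Ctnnb1 reads lay mostly on a noncoding 3' end. Ctnnb1-215, a single exon at chr9:120959216-120960507 that covers the end of the 3' UTR, took 34.4% to 60.1% of Ctnnb1 reads in EC libraries, with a median of 50.9%. All noncoding transcripts together took a median of 56.5% (40.1% to 69.1%) for Ctnnb1, 26.8% for Lef1 and 13.6% for Tcf7l2. The full-length Ctnnb1-214, which encodes 781 residues, separated WT from stabilized libraries in most tissues. In WT it had 5503 and 10444 reads for posterior pituitary ECs, against 9641 and 11277 for those of the anterior lobe and 1802 and 5333 for cortex bound RNA. In stabilized mice the same 3 sources had 0 and 0, 0 and 93.5, and 0 and 0 reads. In cerebellum it had 17422 and 0 reads in WT and 0 and 0 in stabilized ECs, and in choroid plexus it had none in either genotype. GFP-negative cells showed the same pattern, with 905 and 1798 reads in WT against 0 and 0 in stabilized anterior pituitary, and cortex input had 3027 and 3076 against 0 and 0. Since GFP-negative and input RNA moved with the EC RNA, the pattern was not particular to ECs, and the part of the deletion in it was not tested.

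Ctnnb1-210, a noncoding transcript of 773 bases over 4 exons after exon 3, went the other way. It had 387 and 449 reads in stabilized against 0 and 0 in WT cortex bound RNA (adjusted p = 0.0379), a call that was lost with only the compared groups in the fit. In stabilized sorted ECs it held 2201 to 2796 reads per library, against 0 to 135 in 5 of 6 WT libraries and 5036 in WT cerebellum replicate 2. The called transcripts of the 5 genes numbered 0 in cerebellum, 1 in anterior pituitary, 1 in posterior pituitary, 1 in cortex and 0 in choroid plexus among 36, 36, 36, 37 and 37 tested, where 0.081%, 0.103%, 0.173%, 1.13% and 0% of all transcripts tested were called. At an unadjusted p under 0.05 there were 4 in cerebellum and 2 in choroid plexus. Ctnnb1 in cortex was the only member whose transcript proportions changed by edgeR's gene-level F test (adjusted p = 0.000739, or 0.0283 by the Simes method), and this call and that of Ctnnb1-210 were lost without either stabilized cortex replicate. That test called 0.00937% of genes in cerebellum, 0.0187% in anterior pituitary, 0.0375% in posterior pituitary, 10.2% in cortex and 0.0585% in choroid plexus. The Simes method called 0%, 0%, 0.00937%, 2.26% and 0.0195% in the same order. The cortex share is far above that in the other tissues, and 1 of 5 members stands against it.

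**Figure D4:**
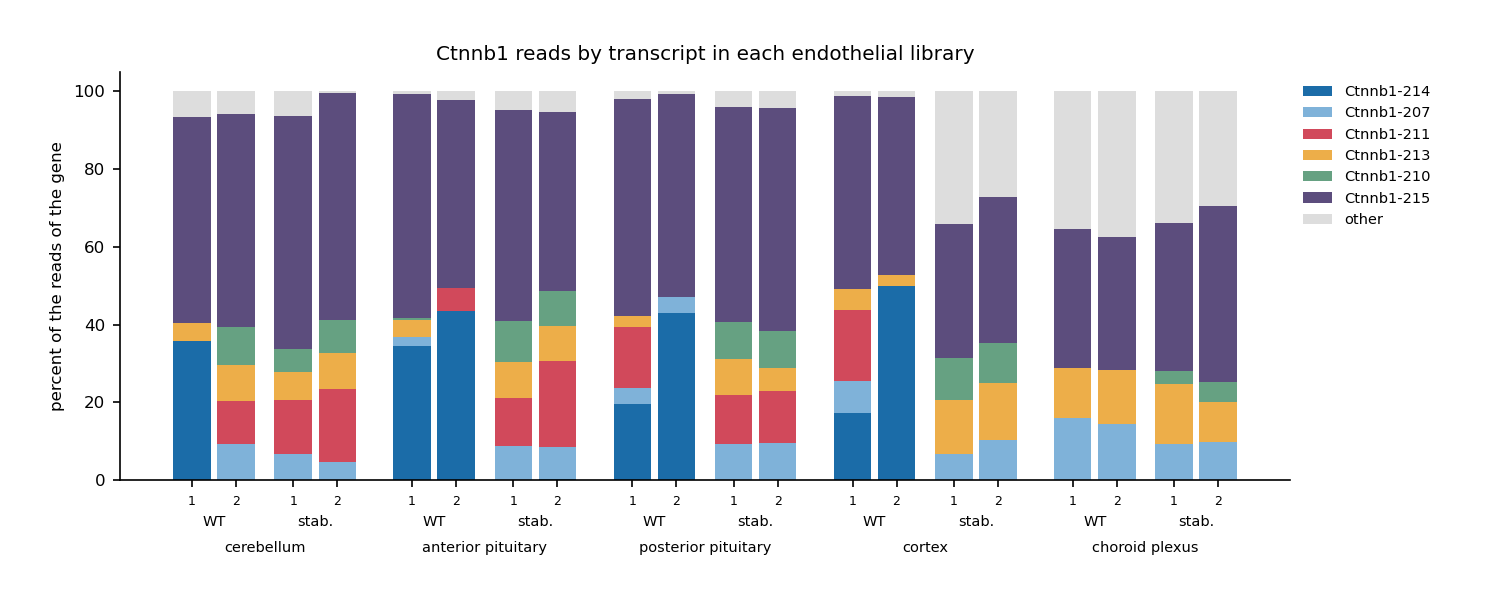
Stacked bars of the percent of Ctnnb1 reads on each transcript in the EC libraries. Ctnnb1-215 takes 34.4% to 60.1% in every library, and Ctnnb1-214 is seen in 7 of 10 WT libraries and is at or near 0 in the stabilized ones.

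Peaks of open chromatin near Lef1 were counted as gained in stabilized ECs of cerebellum and both pituitary lobes. ATAC-seq measures accessible DNA, and peaks from 12 libraries of sorted ECs, 2 per genotype in each of 3 tissues, were read from the deposited calls. A gained region was a peak of stabilized replicate 1 that overlapped a peak of stabilized replicate 2 and no peak of either WT library. It lay within 100 kb of the gene, and only peaks with a fold enrichment over 2 were used. The libraries had 31797 and 29163 such peaks in WT cerebellum, 43413 and 40751 in stabilized cerebellum, 45518 and 60243 in WT anterior pituitary, 48942 and 52394 in stabilized anterior pituitary, 26402 and 25684 in WT posterior pituitary and 36358 and 51666 in stabilized posterior pituitary. Lef1 had 4 gained regions in cerebellum, 4 in anterior and 8 in posterior pituitary ECs. In cerebellum those starting -96090 and 192051 bases from the gene start were free of WT peaks in replicate 1 only. The wider replicate 2 peaks over them also overlapped WT peaks. Those starting at 61658 and 135385 bases had fold enrichments of 3.35 and 3.69 in replicate 1. In replicate 2 these were 2.68 and 3.90. Over the 5 genes there were 7, 8 and 27 gained regions, and 3, 3 and 5 of the 5 genes had at least 1, where 46%, 27.3% and 52% of 22028 genes did. Lost regions, by the same rule with the genotypes exchanged, numbered 0 at the members in cerebellum and posterior pituitary, where 6.54% and 4.65% of all genes had one. In anterior pituitary there was 1 each at Lef1, Tcf7, Tcf7l2 and Ctnnb1, that is at 4 of 5 genes, where 20.4% of all genes had one. The shares among all genes are high in cerebellum and posterior pituitary, so that this count alone says little of the members, and no test was run.

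At the Lef1-201 start a peak lay in both WT cerebellum libraries (fold enrichment 4.67 and 3.36), in neither WT posterior pituitary library, and in both stabilized posterior pituitary libraries (3.58 and 3.63). In anterior pituitary it was in 1 of 2 WT libraries (2.28) and in both stabilized ones (3.86 and 3.97). Of the Lef1 regions gained in the pituitary, 4 of 4 in anterior and 7 of 8 in posterior pituitary overlapped a peak in both WT cerebellum libraries, and the other one overlapped a peak in 1. Among all regions gained anywhere in the genome, 570 of 2828 (20.2%) in anterior and 2398 of 7950 (30.2%) in posterior pituitary did. For the other genes these were 1 of 2 at Tcf7, 0 of 7 at Tcf7l1, 1 of 5 at Tcf7l2 and 1 of 5 at Ctnnb1 in posterior pituitary.

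The TCF/LEF motif was searched as the string CTTTGAA and the string CTTTGAT on both strands (read on the other strand as TTCAAAG for the first of them, with ATCAAAG for the second), in windows of 300 bases about each summit. A match held in 1 of 7 gained regions at the members in cerebellum, 6 of 8 in anterior and 10 of 27 in posterior pituitary. Over all gained regions and all regions with peaks in all 4 libraries of the tissue, the percent with a match was 17.0 and 11.0 in cerebellum, 28.1 against 7.43 for anterior pituitary and 19.7 against 5.43 for posterior pituitary, without a test. The match is a description of letters and not a bound site. Of 32851 promoters, from 250 bases before to 50 bases after the start, 2842 (8.65%) held one of these strings, and 0 of 11 promoters of the members did. The 3 Lef1 regions with 2 matches each in stabilized posterior pituitary are shown as 300-base windows on the plus strand of GRCm38, with the matched strings in capitals.
Lef1 upstream region, -24.3 kb from the start, chr3:131086025-131086324: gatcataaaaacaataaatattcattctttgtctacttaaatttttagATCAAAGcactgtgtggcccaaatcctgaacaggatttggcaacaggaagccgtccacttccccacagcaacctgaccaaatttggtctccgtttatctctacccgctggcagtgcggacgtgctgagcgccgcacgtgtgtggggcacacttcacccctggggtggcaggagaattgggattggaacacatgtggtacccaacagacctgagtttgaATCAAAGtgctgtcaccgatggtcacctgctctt
Lef1 intron region, 26.8 kb after the start, chr3:131137070-131137369: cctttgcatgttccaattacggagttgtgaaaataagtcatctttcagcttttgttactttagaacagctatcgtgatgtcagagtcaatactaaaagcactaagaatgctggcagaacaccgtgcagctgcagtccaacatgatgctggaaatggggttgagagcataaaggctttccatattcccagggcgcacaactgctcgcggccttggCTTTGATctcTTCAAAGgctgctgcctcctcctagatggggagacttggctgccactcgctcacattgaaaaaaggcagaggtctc
Lef1 intron region, 111.2 kb after the start, chr3:131221499-131221798: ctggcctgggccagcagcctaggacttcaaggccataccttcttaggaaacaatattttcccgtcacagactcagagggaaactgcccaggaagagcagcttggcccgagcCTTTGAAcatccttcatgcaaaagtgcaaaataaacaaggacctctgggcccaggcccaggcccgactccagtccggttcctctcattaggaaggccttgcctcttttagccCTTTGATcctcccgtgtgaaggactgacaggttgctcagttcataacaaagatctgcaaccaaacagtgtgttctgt
The upstream region had a fold enrichment of 7.17 and 6.83 in stabilized posterior pituitary, of 11.8 and 12.0 in the stabilized anterior lobe, and of 12.0 and 9.10 in WT cerebellum ECs, with no peak in the 4 WT pituitary libraries. The region 26.8 kb after the start had 7.08 and 4.89 in stabilized posterior, 5.26 and 3.83 in the stabilized anterior lobe and 6.81 and 4.30 in WT cerebellum ECs. The region 111.2 kb after the start was open in WT anterior pituitary as well (8.05 and 4.39) and had 8.76 and 6.76 in stabilized posterior pituitary ECs.

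**Figure D5:**
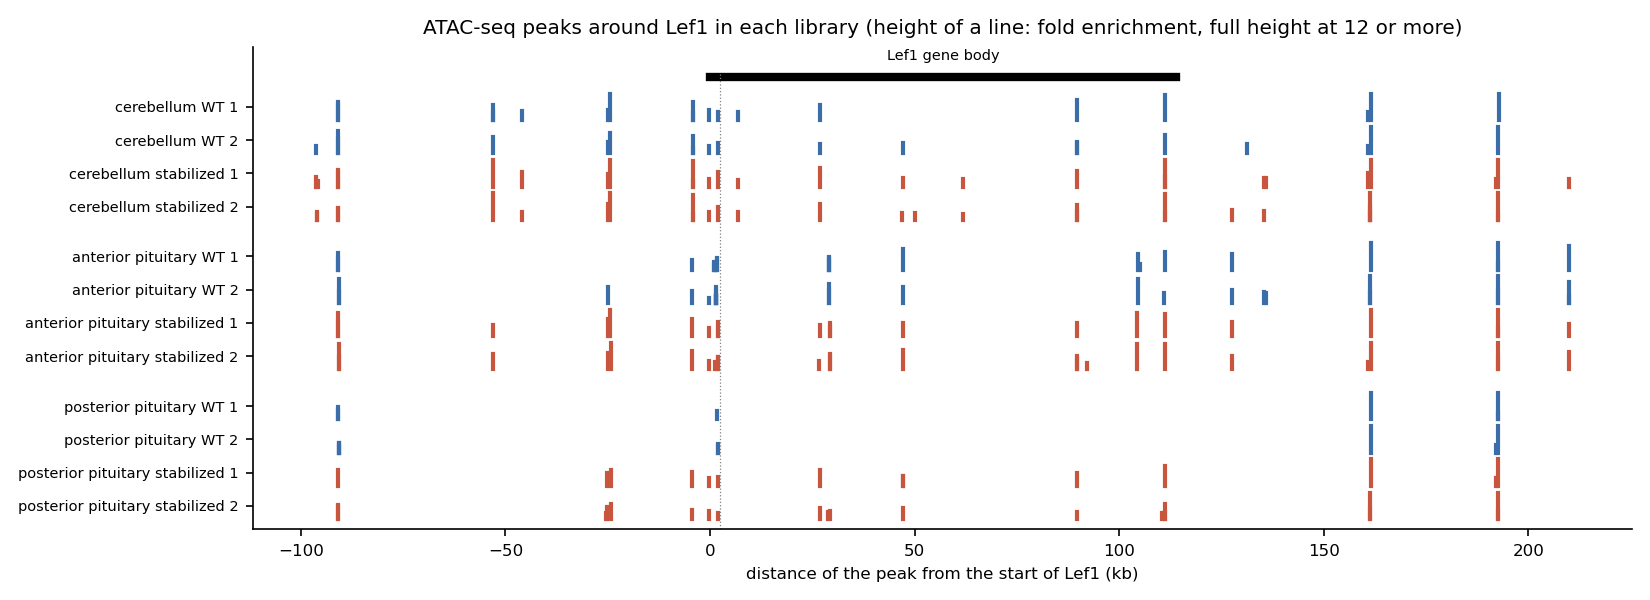
Peaks near Lef1 in 12 ATAC-seq libraries, by distance in kb from the Lef1-201 start, with the height as fold enrichment and the internal start 2.3 kb on as a dotted line. The peaks at -24.3 kb and 26.8 kb are seen in cerebellum and in stabilized pituitary ECs and are missing from WT pituitary ECs, although 1 WT anterior pituitary library holds a peak beside the first of them.

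The partners of the pathway were tested by the same fits from lists of 13 destruction complex and input genes, 11 activating and 13 repressing nuclear partners and 6 junction partners. Axin2, a scaffold of the destruction complex and a known Wnt target, rose in posterior pituitary ECs from 0.356 and 0.405 to 26.7 and 28.1 TPM (log2 change 5.73, SE 1.16, adjusted p = 0.0291) and in cortex from 13.9 and 9.95 to 31.0 and 30.0 TPM (2.66, SE 0.266, adjusted p = 0.00119). In posterior pituitary the repressor Hic1 fell from 18.0 and 27.3 to 1.58 and 2.19 TPM (-2.68, SE 0.535, adjusted p = 0.027) and Tle1, a Groucho corepressor, rose by 1.27 (adjusted p = 0.0488) on counts, while its TPM went from 21.8 and 24.2 to 19.4 and 18.9. In cortex Tbl1xr1 fell by 1.06 (adjusted p = 0.0342) and Tle4 by 1.20 (adjusted p = 0.0333). In the same cortex libraries neuronal and oligodendrocyte markers were lower in stabilized mice, and in those of posterior pituitary microglial markers were higher (109 to 134 against 0.116 to 0.86 TPM) and endothelial markers lower, as given above, and their part in the partner changes was not tested. So 1 of 13 destruction complex genes and 1 of 13 repressing partners rose and 1 of 13 repressing partners fell in posterior pituitary, where 1.79% of all genes were called. In cortex 1 of 13 destruction complex genes rose and 1 of 11 activating and 1 of 13 repressing partners fell, where 6.53% of all genes were called, so that these counts are near the background. No list gene was called in cerebellum, anterior pituitary or choroid plexus, and no junction partner was called anywhere. Values of list genes that were not called are not given here. From genome browser images, the paper reports higher Axin2 in stabilized ECs of both pituitary lobes, with greater induction in the posterior lobe. The list medians ran from -0.803 for the junction partners in posterior pituitary, where the median of all genes was 0.01, to 0.613 for the repressing partners in cortex, where it was 0.

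By Pearson correlation of log2 levels over the 20 EC libraries, centered within the sorted and the RiboTag libraries, the genes closest to each member were read as a description among 9315 genes. Lef1 lay nearest to Tnfrsf19 (r = 0.926), Ndnf (0.914) and Mfsd2a (0.913), and Tcf7 to Lsr (0.969), Maoa (0.962) and Notum (0.961). Tcf7l1 lay nearest to Piezo2 (0.885), Lbp (0.866) and Esm1 (0.865), Tcf7l2 to Bcl2l2 (0.834), Plekhh3 (0.804) and Unc13a (0.795), and Ctnnb1 to Hey1 (0.831), Vcam1 (0.812) and Cd82 (0.810). Among the members themselves, Lef1 and Tcf7 had r = 0.857, Tcf7 and Tcf7l1 r = -0.817, and Lef1 and Tcf7l1 r = -0.63. The libraries share tissues and genotypes, so that these values hold differences between groups as well as within them.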

How the data were processed

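Per the study's methods, the authors sequenced single-end RNA libraries and quantified transcripts with Salmon (0.10.2) against Ensembl models of GRCm38. The deposited tables hold an estimated count per transcript and its TPM. For ATAC-seq the authors aligned reads to mm10 with Bowtie2 (2.3.2) and called peaks per library with MACS2 (2.1.1.20160309). The deposited peak files give the fold enrichment (a ratio over background) and −log10 p- and q-values, of which peaks with a fold over 2 and a −log10 q over 2 were used here.

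From these files, transcript values were summed to genes through a GENCODE M21 annotation, expected counts were rounded, and edgeR 4.0.16 (R 4.3.3) was fitted with TMM scaling, filterByExpr, 1 coefficient per group and a quasi-likelihood test. Adjusted p-values are Benjamini-Hochberg over all genes or transcripts tested. The fits held 12 sorted EC, 8 bound, 24 sorted and 16 RiboTag libraries, the last 2 being used for ECs against surrounding cells. Transcript proportions were tested with diffSpliceDGE, which made more false calls on simulated data than its threshold allows, so its Simes p is printed beside it. RPM values were divided by all estimated reads of the library. The study's own differential test was EBSeq, which was not used here. The 5 members were named in every comparison, with the 3 best correlated genes (mean TPM at least 5) and the called pathway genes, Axin2 among them, where they were called. Transcripts that reached 5% of the TPM of a gene in any EC group numbered 10 for Ctnnb1, 6 for Lef1, 2 for Tcf7, 5 for Tcf7l1 and 15 for Tcf7l2. Only some of these are named in the text, and those left out were not always minor. The members and lists were chosen with earlier results of these data known. Alternatives were RLE scaling, DESeq2 1.42.0, a fold of at least 2, no filter, a transcript length offset, fits of the compared groups only, a replicate block and leaving out each library. Replicates of 1 group are separate samples in the labels, and p-values measure the spread between them. Sequences were read from the GRCm38 reference, and promoters from RefSeq on GRCm38.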

Additional observations from a re-analysis of the deposited data

Results flagged for a closer look

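For Tcf7l1 and Ctnnb1, the stabilized libraries lay below WT in 1 tissue and above WT in another, without overlap in RPM. The log2 change of stabilized over WT ECs was -0.72 for Tcf7l1 in posterior pituitary and 1.12 in cortex. For Ctnnb1 it was -0.28 in cerebellum and 0.15 in anterior pituitary. None of these changes was called, both Ctnnb1 changes lay within 1 SE of 0, the cerebellum libraries of Ctnnb1 overlapped in TPM, and the differences between the tissues were not tested. The changes were fitted on counts, and overlap was judged in RPM. With 2 libraries per group, no library could be checked against the others of its group.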

How the results depend on the processing

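Counts of the 5 genes called between genotypes in ECs moved with the processing, and the cause was not tested. In anterior pituitary 1 was called, against 2 with no filter on low counts and 0 with the transcript length offset or with only the compared groups. In posterior pituitary 1 was called, against 2 with no filter or DESeq2 and 0 with the offset or only the compared groups. In cortex 0 became 2 with no filter or DESeq2 and 1 with the offset, and in choroid plexus 0 became 2 with RLE size factors, no filter or DESeq2 and 1 with only the compared groups. DESeq2 gave 3 in place of 2 for WT cerebellum against either pituitary lobe and for cerebellum ECs against surrounding cells. WT cerebellum against anterior pituitary gave 1 in place of 2, and WT cortex against choroid plexus 1 in place of 2, with only the compared groups, and WT cerebellum against posterior pituitary gave 1 in place of 2 with the offset. For WT ECs against surrounding cells, anterior pituitary gave 4 with no filter, 0 with the offset and 2 with DESeq2 in place of 1, posterior pituitary 1 in place of 3 and cortex 2 in place of 4 with only the compared groups, and choroid plexus 1 with a fold of at least 2 or the offset and 0 with no filter in place of 2. In surrounding cells, no filter gave 1 in place of 0 in cerebellum, anterior pituitary and posterior pituitary, and cortex input gave 0 in place of 1 with a fold of at least 2, no filter or the offset.

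Same-numbered replicates of different groups had correlations of deviations from -0.178 to 0.0906, none over 0.1. Between ECs and surrounding cells, where input was saved from the homogenate used for bound RNA, the same number may mark a shared source, and the block changed no member call there. With the replicate block, 2 members were called in posterior pituitary, 1 in cortex and 1 in choroid plexus (Lef1 being the gain in each), Tcf7l1 was called between WT cerebellum and posterior pituitary (adjusted p = 0.0487), transcript calls numbered 2 in posterior pituitary and 0 in cortex, Lef1 in cerebellum turned to -0.05, and Tcf7 between WT pituitary lobes to -0.26. A block with crossed numbers in the surrounding choroid plexus, chosen after seeing the data, called 0 members.

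Transcript calls rose with no filter to 2 in cerebellum, 6 in anterior pituitary, 6 in posterior pituitary, 7 in cortex and 1 in choroid plexus, and were 0 in both pituitary lobes and cortex with only the compared groups, where transcript usage gave 1 in posterior pituitary and 2 in cortex. Gained regions numbered 4 in cerebellum and 16 in posterior pituitary above a fold enrichment of 4, and 2 in cerebellum and 3 in anterior pituitary within 10 kb. The difference in the short share of Lef1 turned to -4.87 with all transcripts as the denominator, and between ECs and surrounding cells to -9.74 with no minimum of reads. With the length offset, log2 differences turned to -0.05 for Tcf7 in cerebellum, -0.40 for Tcf7l2 in posterior pituitary, 0.24 for Tcf7l2 and 0.66 for Ctnnb1 in cortex, -0.01 for Tcf7l2 between WT pituitary lobes, -0.45 for Lef1, -0.04 for Tcf7l2 and -0.81 for Ctnnb1 between WT cortex and choroid plexus, and -0.28 for Tcf7l1 in cortex ECs against surrounding. With no filter Tcf7l2 in choroid plexus ECs against surrounding turned to -0.05.

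Leaving out 1 library at a time gave 1 to 2 members called in anterior pituitary, 1 to 2 in posterior pituitary, 0 to 2 in cortex and 0 to 1 in choroid plexus ECs between genotypes, 0 to 1 between WT pituitary lobes, 1 to 2 in anterior pituitary and 0 to 1 in choroid plexus for WT ECs against surrounding cells, and 0 to 1 in posterior pituitary and 0 in cortex for surrounding cells between genotypes. Transcripts called ran from 1 to 4 in cerebellum, 3 to 7 in anterior pituitary, 4 to 6 in posterior pituitary and 0 to 2 in cortex, and members with changed usage in cortex from 0 to 1. Gained regions, which need fewer libraries, ran from 9 to 20, 8 to 20 and 28 to 49 in cerebellum, anterior and posterior pituitary. Short share differences ran from -2.98 to 9.02 and -1.32 to 11.0 percentage points for Lef1 and from -4.17 to 11.9 and -4.17 to 3.88 for Tcf7l2, between genotypes and between ECs and surrounding cells. Log2 differences that changed sign ran, between genotypes, from -0.12 to 0.20 for Lef1 and -0.35 to 0.43 for Tcf7 in cerebellum, -0.07 to 0.05 for Tcf7l2 and -0.03 to 0.33 for Ctnnb1 in anterior pituitary, -0.13 to 0.61 for Ctnnb1 in posterior pituitary, -0.53 to 0.40 for Tcf7l2 in cortex and -0.57 to 0.13 for Tcf7l1 in choroid plexus. Between WT tissues they ran from -0.56 to 0.09 for Tcf7l2 (cerebellum and posterior pituitary), -9.43 to 1.34 for Lef1 and -5.15 to 5.18 for Tcf7 (pituitary lobes), and -0.29 to 0.68 for Tcf7l2 and -0.01 to 0.29 for Ctnnb1 (cortex and choroid plexus). For ECs against surrounding cells they ran from -0.75 to 0.12 for Tcf7l1 in cerebellum, -7.13 to 3.35 for Lef1 and -8.04 to 2.53 for Tcf7 in anterior pituitary, -7.05 to 5.16 for Tcf7 in posterior pituitary, and -0.38 to 0.44 for Lef1 and -0.10 to 0.13 for Tcf7l2 in choroid plexus. A group left with 1 library was assumed to vary like the others. Tcf7 stayed called in both pituitary lobes without any 1 library. WT pituitary counts of Lef1 and Tcf7 near 0 limit the precision of their fold changes.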
